A study of Mus musculus with 8 samples.

Results

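Mouse embryonic stem cells treated with MM401, a blocker of the histone methyltransferase MLL1, were compared with untreated cells of the same kind. The comparison covers 16175 of the 61535 loci in the deposited tables. A locus was kept if it carried a gene name, had the status OK in both groups and held at least 100 estimated counts in either of them. The series has 8 RNA-seq libraries in 4 groups of 2, and the authors' tables give 1 pooled column per group, so no SD, n or p-value between libraries can be given for any value. The error shown is the authors' interval around each pooled FPKM (fragments per kilobase of transcript, scaled to sequencing depth), given in parentheses as its lower and upper limit.

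All groups came from blastocyst-derived stem cells of strain C57BL/6J and genotype Mll1fl/fl, with Cre-ER TM, cultured with LIF on MEF feeder cells. The MM401 group was treated at 100 µM for 5 days in LIF/serum. The sources used here do not state the medium of the untreated cells, and no group with solvent alone was among the samples, so effects of the inhibitor, its solvent and the medium cannot be told apart. Neither of these groups received 4-OHT, the agent that activates Cre-ER, so the floxed gene was not deleted in them by design. The other groups, shown side by side where useful, are the Mll1 deletion (4-OHT, 5 µM) and 2i (PD at 1 µM and CHIR99021 at 3 µM), whose cultures also contained feeders. All 3 treated columns are set against the same untreated column. In these bulk samples, fewer cells of a type and less RNA per cell cannot be told apart.

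MLL1, encoded by Kmt2a, methylates lysine 4 of histone H3 together with the shared subunits WDR5, RBBP5, ASH2L and DPY30. MM401 is a peptide mimic that blocks the contact between MLL1 and WDR5. Embryonic stem cells hold their identity through OCT4 (encoded by Pou5f1), SOX2 and NANOG. They divide fast with a short G1 phase and rely heavily on glycolysis and on threonine and serine for nucleotide synthesis.

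Of the 16175 loci, 708 (4.38%) were at least 2-fold higher in MM401 cells and 697 (4.31%) at least 2-fold lower, together 1405 (8.69%), by the log2 ratio of FPKM + 1. The intervals were also separate at 535 (3.31%) and 543 (3.36%) of them. With a pseudocount of 0.1 the split was 1604 higher to 1126 lower, and with a pseudocount of 5 it was 174 to 355. On estimated counts as deposited, a setting chosen after seeing the data, it was 1595 to 1146. Scaled to their totals, the counts gave 2023 to 860. The FPKM ratio over the unscaled count ratio had a median of 1, so the deposited counts already shared the FPKM scale. Scaling them to totals therefore shifts every locus towards higher. The shares at 2-fold are the background for every count below, and "higher" and "lower" mean past 2-fold. Of all members, 48.3% had a ratio above 0, and the median was −0.02, with quartiles of −0.39 and 0.34. The higher loci with separate intervals were mostly at low level, with a median of 2.67 FPKM untreated and 8.995 in MM401. The lower ones started at a median of 25.004 and reached 8.48. Their summed level went from 41721 to 16038 FPKM, whereas the higher ones went from 5256 to 14405. On the same loci, 171 (1.06%) were higher and 238 (1.47%) lower in the Mll1 deletion, and 202 (1.25%) and 260 (1.61%) in 2i.

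**Figure D1:**
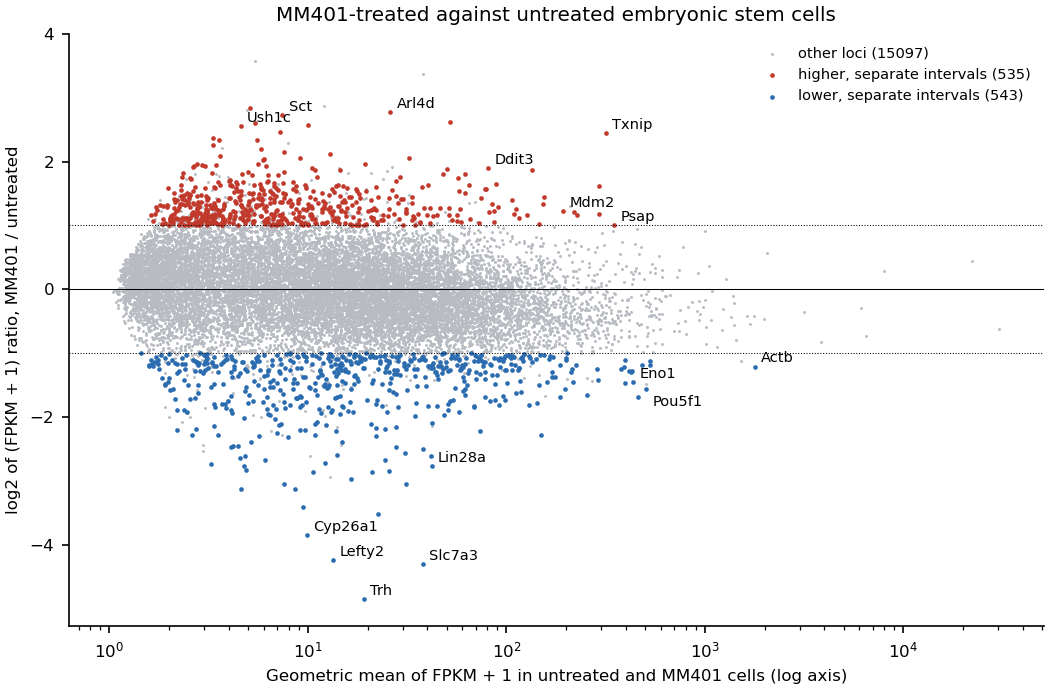
Each dot is 1 of the 16175 loci, with the geometric mean of FPKM + 1 in untreated and MM401 cells on a log axis and the log2 ratio of FPKM + 1 (MM401 over untreated) on the vertical axis. Red marks the 535 loci higher with separate intervals and blue the 543 lower ones, dotted lines are at 2-fold, and the blue dots reach further to the right than the red ones.

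Total estimated counts were 84503307 untreated and 76501619 in MM401, of which the members held 98.3% and 97.5%. The upper limit of the interval lay a median of 31.7% above the value untreated and 31.9% above it in MM401. The count minimum was reached in untreated cells alone by 527 members, of which 87 were lower, and in MM401 cells alone by 809, of which 97 were higher, a direction that the filter favours. Loci that join several gene names number 1441, and 550 members share a name with another. A 2-fold ratio with overlapping intervals was found at 173 higher and 154 lower loci. Separate intervals below 2-fold were found at 1001 higher and 1007 lower loci. The 8 fixed stem cell markers were all members, and their summed level was 9569 FPKM untreated and 10029 in MM401, most of it from the Dppa5a locus (7220 and 8828). The other 7 summed to 2349 and 1202 FPKM, and of the 8 markers 2 were above 0 and 3 were lower (median −0.42). The visceral endoderm set (4 of 5 measured) summed to 26.9 and 3.93 FPKM, and all 4 were lower. The fibroblast set (11 of 12 measured) summed to 1438 and 1649 FPKM, and no defining marker of these sets was at 0. The trophoblast set had 2 members of 5, with a sum of 1.56 and 3.12 FPKM.

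The 20 largest decreases began with Trh. This gene, which encodes the precursor of thyrotropin-releasing hormone (chromosome 6, 92242061 to 92244650, GRCm38), was at 102 FPKM (83.3 to 121) untreated and 2.56 (1.89 to 3.24) in MM401, a log2 ratio of −4.85. It was at 19.2 in the Mll1 deletion and 129 in 2i, so 2i was the highest of the 4 groups and MM401 the lowest. Slc7a3, a transporter of arginine and lysine (chromosome X, 101079210 to 101086020), was at 167 (111 to 223) untreated, 7.51 (4.42 to 10.6) in MM401, 81.8 in the Mll1 deletion and 207 in 2i. Cyp26a1, which degrades retinoic acid, was at 36.4 untreated, 1.60 in MM401, 2.64 in the Mll1 deletion and 31.7 in 2i. Here the MM401 and deletion columns were both low and the 2i column was near the untreated one. Notum, a secreted enzyme that removes the lipid of WNT proteins, was at 24.4 and 1.91 FPKM. Aoah, which deacylates bacterial lipopolysaccharide, was at 12.7 and 0.566, and Dpp4, a surface peptidase, at 27.7 and 2.95. The transcription factor gene Foxd3 (chromosome 4, 99656299 to 99658622) was at 20.8 (15.9 to 25.6) untreated, 1.64 (0.895 to 2.38) in MM401, 14.6 in the deletion and 25.1 in 2i, so only its MM401 column was lower by 2-fold. Halr1, a long RNA gene beside the Hoxa cluster, had a ratio of −2.97, and the transcription factor gene Msc one of −2.84. Msc, with 92.1 estimated counts in MM401, reached the count minimum in untreated cells alone.

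The largest increases began from low levels, with a few exceptions. Txnip (chromosome 3, 96557957 to 96561883) was the most abundant of them, at 135 FPKM (89.5 to 180) untreated and 740 (530 to 950) in MM401, with 506 in the Mll1 deletion and 150 in 2i. Rgcc, a regulator of the cell cycle, was at 14.9 and 64.7 FPKM, and the small GTPase gene Arl4d had a ratio of 2.78. Sct, the precursor of the hormone secretin, was at 1.90 (0.995 to 2.80) and 18.1 (13.96 to 22.3). Genes known from germ cells were among the 20 largest, namely Tex101 (0.463 to 6.53 FPKM), Dpep3 (1.47 to 11.49), Ly6k (3.48 to 17.7) and Spag4 (1.96 to 11.1). Tex101, Dpep3 and Ly6k stood at 3.66, 11.9 and 17.4 FPKM in the Mll1 deletion, and at 0.555, 1.19 and 7.68 in 2i. Others among the 20 were Itga2b, the integrin subunit of platelets (ratio 2.46), Ush1c, which encodes the scaffold protein harmonin (2.56), and the lens and neuron transcription factor gene Pitx3 (2.25). Tex101, Sct and Pitx3 had 40.2, 60.3 and 23.1 estimated counts untreated. They reached the count minimum in MM401 alone, so the filter favours their direction.

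**Figure D2:**
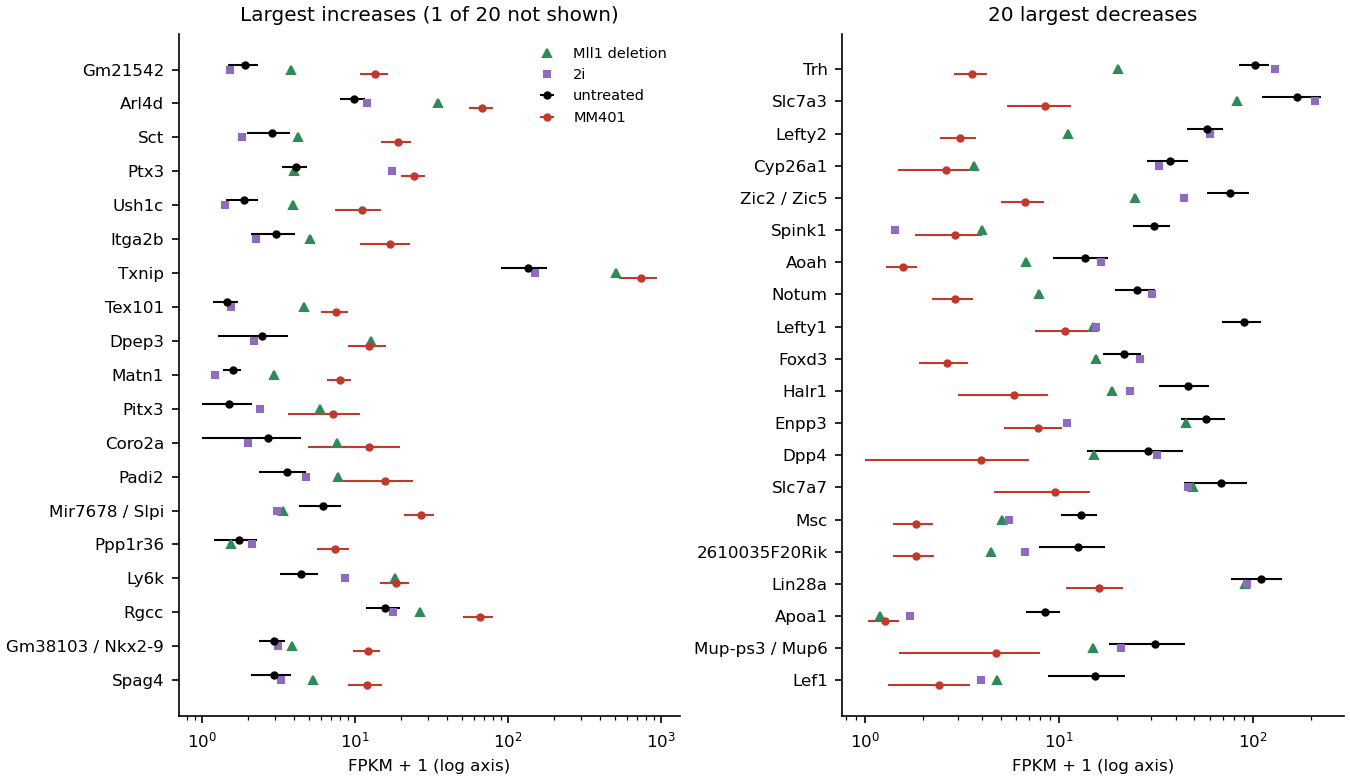
FPKM + 1 on a log axis for the largest increases (1 of the 20 is not shown) and the 20 largest decreases with separate intervals, with bars for the authors' intervals in untreated (black) and MM401 cells (red), and the Mll1 deletion (green triangles) and 2i (purple squares) without intervals. Trh, at the top right, runs from 102 FPKM untreated to 2.56 in MM401 with the deletion between them, and Txnip is the most abundant gene on the left.

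Most genes of the target complex were within 2-fold, as were most members. Of 22 loci of the MLL and SET1 methyltransferases and their subunits, 0 were higher and 1 was lower, against backgrounds of 4.38% and 4.31%. A ratio below 0 was found at 16 of them and above 0 at 6, with a list median of −0.46. Kmt2a itself had a ratio of −0.09. Setd1b, a SET1 methyltransferase, was the lower one, at 8.602 FPKM (5.31 to 11.9) untreated and 2.73 (0.917 to 4.54) in MM401. The shared subunit genes Dpy30 (169 and 92.0 FPKM) and Wdr5 (136 and 93.5 FPKM) were below 2-fold. Psip1, whose product LEDGF ties MLL1 to chromatin, was at 110 and 56.0 FPKM. The medians of this list were 0.04 in the Mll1 deletion and 0.15 in 2i.

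Part of the pluripotency network was lower and part was not. Of 28 loci of core and naive factors, 12 were lower, all with separate intervals, and 0 were higher, against a background of 4.31% lower. The lower ones held Pou5f1 (chromosome 17, 35506018 to 35510772; 874 and 294 FPKM, ratio −1.57), the zinc finger gene Klf5 (195 and 62.5), the orphan receptor gene Nr0b1 (74.2 and 11.7), Utf1 (332 and 103), Sall4 (142 and 55.4) and Tcl1 (41.1 and 18.4). Sox2 was at 299 (252 to 347) and 190 (155 to 225), a ratio of −0.65 with separate intervals. The intervals of Nanog overlapped, at 265 (223 to 307) and 289 (243 to 335). Pou5f1 was at 1008 in the Mll1 deletion and 1196 in 2i, so MM401 was the lowest of its 4 columns. The list medians were −0.82 in MM401, 0.14 in the deletion and 0.22 in 2i.

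Genes of the formative and primed epiblast, the state that follows naive pluripotency, had the lowest median of the 53 lists. Of 17 loci 12 were lower, 11 with separate intervals, and 0 had a ratio above 0. Otx2, a transcription factor of that state, was at 33.2 FPKM (25.7 to 40.6) and 5.53 (3.99 to 7.08). Fgf5, its usual marker, was at 8.66 and 0.734. Pou3f1 was at 10.3 and 3.59, and Sox4 at 33.8 and 15.8. The medians of this list were below 0 in all 3 treated columns, at −1.30 in MM401, −0.66 in the Mll1 deletion and −1.14 in 2i. Among all members of the comparison, beyond this list, Nasp-ps1 and the Msantd2 locus lay just inside the threshold for lower loci. Psmc5, Mbd3 and Gm6368 lay just outside it.

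NODAL, a ligand of the TGF-beta family, signals through SMAD2 and FOXH1 and induces its own antagonists. Of 19 loci of this pathway 8 were lower, all with separate intervals, and 0 were higher (median −0.47). The antagonist genes had the lowest ratios. Lefty2 was at 57.1 FPKM untreated, 2.08 in MM401, 10.2 in the Mll1 deletion and 59.1 in 2i. Lefty1 was at 89.0, 9.80, 13.99 and 14.6 in the same order, so it was low in all 3 treated columns and Lefty2 only in the first 2. Cer1, another secreted antagonist, was at 3.69 and 0.0158. The coreceptor gene Tdgf1 was at 337 and 114 FPKM, and the cofactor gene Foxh1 at 24.4 and 5.71. The ligand gene Nodal itself was at 42.0 (34.2 to 49.8) and 30.1 (24.5 to 35.7), with overlapping intervals. The signal transducer gene Smad2 was at 31.4 and 30.1, and the receptor gene Acvr1b at 19.12 and 23.5.

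Other signalling lists held members in both directions. Among 27 WNT loci, 4 were higher and 4 lower (median 0.02). The lower ones were Notum, the nuclear factor gene Lef1 (14.3 and 1.39 FPKM), Ccnd1 (94.8 and 23.3) and the receptor gene Fzd5 (30.2 and 13.96). The higher ones were the ligand genes Wnt7b (0.408 and 3.68), Wnt9a (0.969 and 5.28) and Wnt6 (1.05 and 3.69) and the antagonist gene Nkd1. Among 21 BMP loci, the ligand gene Bmp7 (4.70 and 19.8) and the target gene Id2 (5.25 and 17.2) were higher and the target gene Id3 (73.9 and 29.1) was lower, while the Id1 locus had a ratio of 0.25. Of 24 FGF and ERK feedback loci 6 were lower and 1 was higher. The lower ones held the feedback inhibitor genes Spry4 (27.6 and 6.37) and Dusp6 (47.4 and 20.2), and the higher one was the receptor gene Fgfr4 (1.93 and 6.30). Among 17 LIF and STAT3 loci, Socs2 (46.0 and 9.39) and Gbx2 (17.1 and 4.33) were lower, whereas Stat3 (0.08) and its feedback target Socs3 (0.53) were within 2-fold. Of 16 retinoid loci, Cyp26a1 and the retinol receptor gene Stra6 were lower and 0 were higher.

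Genes of DNA replication held many lower members, and genes of mitosis held none past 2-fold. Of 34 loci of replication licensing and S phase, 12 were lower, all with separate intervals, 0 were higher and 0 had a ratio above 0 (median −0.87). Ccne1, whose product cyclin E drives entry into S phase, was at 109 FPKM (84.9 to 133) and 33.7 (25.7 to 41.7). Pola1, a subunit of the polymerase that starts DNA strands, was at 20.3 and 6.33. The helicase genes Mcm5 (165 and 68.2), Mcm3 (171 and 80.8) and Mcm6 (189 and 89.3) were lower, as were the sliding clamp gene Pcna (89.6 and 36.9) and the loader gene Cdc6 (22.7 and 8.94). Of 30 mitosis loci, 0 were higher and 0 lower, and the median was −0.05, with a range from −0.56 to 0.61. Cdk1 was at 276 (207 to 345) and 249 (185 to 313), and Cenpa, the histone of centromeres, at 245 and 236. The S phase median was 0.08 in the Mll1 deletion and 0.16 in 2i, and the mitosis median was 0.16 and −0.31.

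Of the kinase and cyclin genes of G1, Cdk4 (chromosome 10, 127063534 to 127067920) was at 653 FPKM (522 to 784) untreated and 236 (169 to 304) in MM401, and at 491 and 837 in the Mll1 deletion and 2i. Cdk2, chosen after its values were seen, was at 75.6 and 36.4. Ccnd1 was lower as given above, while Ccnd3, also chosen after its values were seen, was at 306 and 225. Of 20 loci of CDK inhibitors and growth arrest genes, 6 were higher, 3 of them with separate intervals, and 1 was lower. The separate ones were Cdkn1c (8.24 and 22.9), Btg2 (33.0 and 97.9) and Gadd45b (6.96 and 23.4). The family gene Gadd45a went the other way without passing, at 246 and 166.

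Targets of p53, the stress-activated tumour suppressor, had members past 2-fold on the higher side alone. Of 34 loci of 30 genes 15 were higher, 14 with separate intervals, and 0 were lower, against a background of 4.38% higher. Plk2, a kinase gene, was at 36.0 FPKM (29.3 to 42.6) and 114 (93.0 to 134), and Mdm2, the ligase gene of the p53 feedback loop, at 126 (90.6 to 161) and 294 (216 to 372). Also higher were the death receptor genes Tnfrsf10b (22.7 and 52.9) and Fas (3.22 and 8.001), the pro-death BH3 gene Pmaip1 (19.5 and 46.6), Ccng1 (102 and 207), Polk, a polymerase for damaged templates (8.43 and 23.7), and Rrm2b, a nucleotide reductase subunit (4.66 and 15.9). Mdm2 was at 123 in the Mll1 deletion and 71.3 in 2i, so only its MM401 column was 2-fold higher. The list medians were 0.75 in MM401, 0.09 in the deletion and 0.05 in 2i. Cdkn1a, the CDK inhibitor p21, was at 158 (124 to 191) and 270 (220 to 320), a ratio of 0.77. The pro-death gene Bax, at a locus joined with others, had a ratio of −0.68 with overlapping intervals. Bbc3, which encodes PUMA, was at 47.6 and 45.9. Trp53, which encodes p53 and was chosen after its values were seen, was itself lower, at 170 (120 to 219) and 52.7 (34.2 to 71.1), a ratio of −1.67 with separate intervals. Of 24 loci of the BCL2 family and caspases, Pmaip1 was the higher one and 0 were lower.

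**Figure D3:**
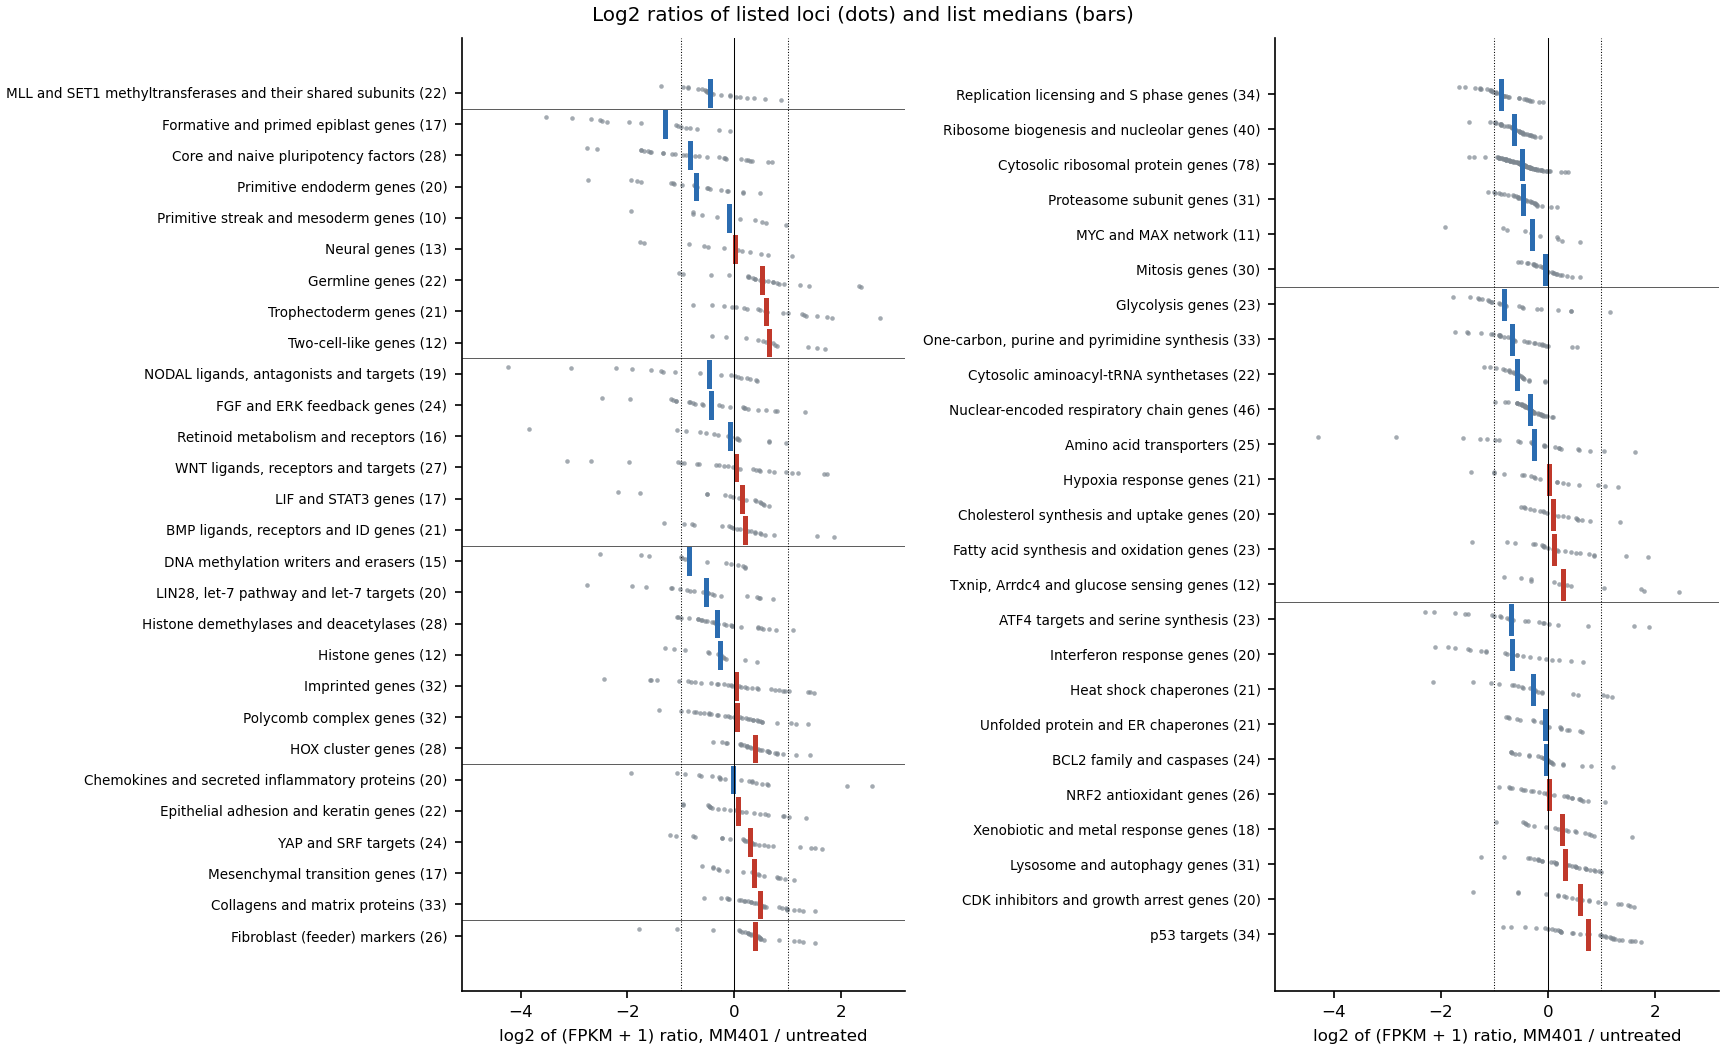
Grey dots are the log2 ratios (FPKM + 1, MM401 over untreated) of the loci in each of 53 gene lists, with the number of loci in parentheses, and bars are list medians, red above 0 and blue below. Dotted lines are at 2-fold, and the p53 list has the highest median (0.75), the formative and primed list the lowest (−1.30).

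Genes of the growth machinery had ratios mostly below 0, few of them past 2-fold. Of 78 cytosolic ribosomal protein loci, 73 had a ratio below 0 and 3 were lower past 2-fold, with a median of −0.48. All 40 loci of ribosome biogenesis were below 0 (median −0.62), and 2 were past 2-fold, among them Gar1, a subunit of the pseudouridylation complex (126 and 58.9 FPKM). The nucleolar protein gene Npm1 was at 618 and 332. Of 31 proteasome loci 29 were below 0 (median −0.46) and 1 was past 2-fold, and of 46 nuclear genes of the respiratory chain 44 were below 0 (median −0.33) with 0 past it. All 22 cytosolic tRNA synthetase loci were below 0 (median −0.57), with Lars, for leucine, past 2-fold with separate intervals (114 and 49.0). Beside these medians stands that of the most abundant of 5 equal bins of members, −0.28. Ribosomal protein genes share reads with many processed pseudogenes, so their values are uncertain. Mycn, a growth regulator of stem cells, was at 112 (90.5 to 133) and 28.9 (23.2 to 34.5), and Myc, at 13.97 and 7.35, had a ratio of −0.84.

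Lin28a, whose product blocks processing of the let-7 microRNA, was at 109 FPKM (76.5 to 141) untreated, 15.1 (9.92 to 20.3) in MM401, 90.3 in the Mll1 deletion and 92.0 in 2i. Its paralog Lin28b was at 8.03 and 1.86. Of 20 loci of the LIN28 and let-7 pathway and let-7 targets 6 were lower and 0 higher, including the chromatin protein gene Hmga1 (84.0 and 36.4), the RNA-binding protein gene Igf2bp3 (33.6 and 14.4) and the ubiquitin ligase gene Trim71 (66.0 and 32.2, a joint locus). The other 14 loci were within 2-fold, and 5 of the 20 had a ratio above 0. Genes such as Hmga1, Igf2bp3 and Trim71 are known let-7 targets, but let-7 itself was not measured and its part was not tested.

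Glycolysis genes were lower at several steps of the pathway. Of 23 loci 9 were lower, 8 with separate intervals, and 1 was higher, with a median of −0.83, against −0.05 in the Mll1 deletion and −0.13 in 2i. In the order of the pathway, the glucose transporter genes Slc2a1 (297 and 213 FPKM) and Slc2a3 (676 and 768) were within 2-fold with overlapping intervals. At the hexokinase step the paralogs went apart. Hk2 was at 75.02 (60.8 to 89.2) and 31.5 (25.1 to 37.9), and Hk1 at 25.5 (20.5 to 30.5) and 58.5 (45.0 to 72.0), so Hk2 was the more abundant one untreated and Hk1 in MM401. At the phosphofructokinase step Pfkl (74.9 and 35.1) and Pfkp (237 and 115) were lower, while Pfkm was at 28.3 and 38.5 with overlapping intervals. The enzyme genes Aldoa (577 and 268), Eno1 (723 and 263) and Pkm (663 and 269, a joint locus) followed. At the last step, Ldha, which makes lactate, was at 264 (193 to 335) and 76.0 (60.9 to 91.0), and its paralog Ldhb at 273 (212 to 334) and 370 (288 to 453), with overlapping intervals. The lactate exporter gene Slc16a3 was at 39.6 and 17.7 with overlapping intervals. Gapdh and Pgk1 were listed at 17.1 and 16.9 FPKM untreated, low for these genes, and Eno1, Aldoa and Pkm also have processed copies in the mouse genome, so the levels of these genes are uncertain.

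**Figure D4:**
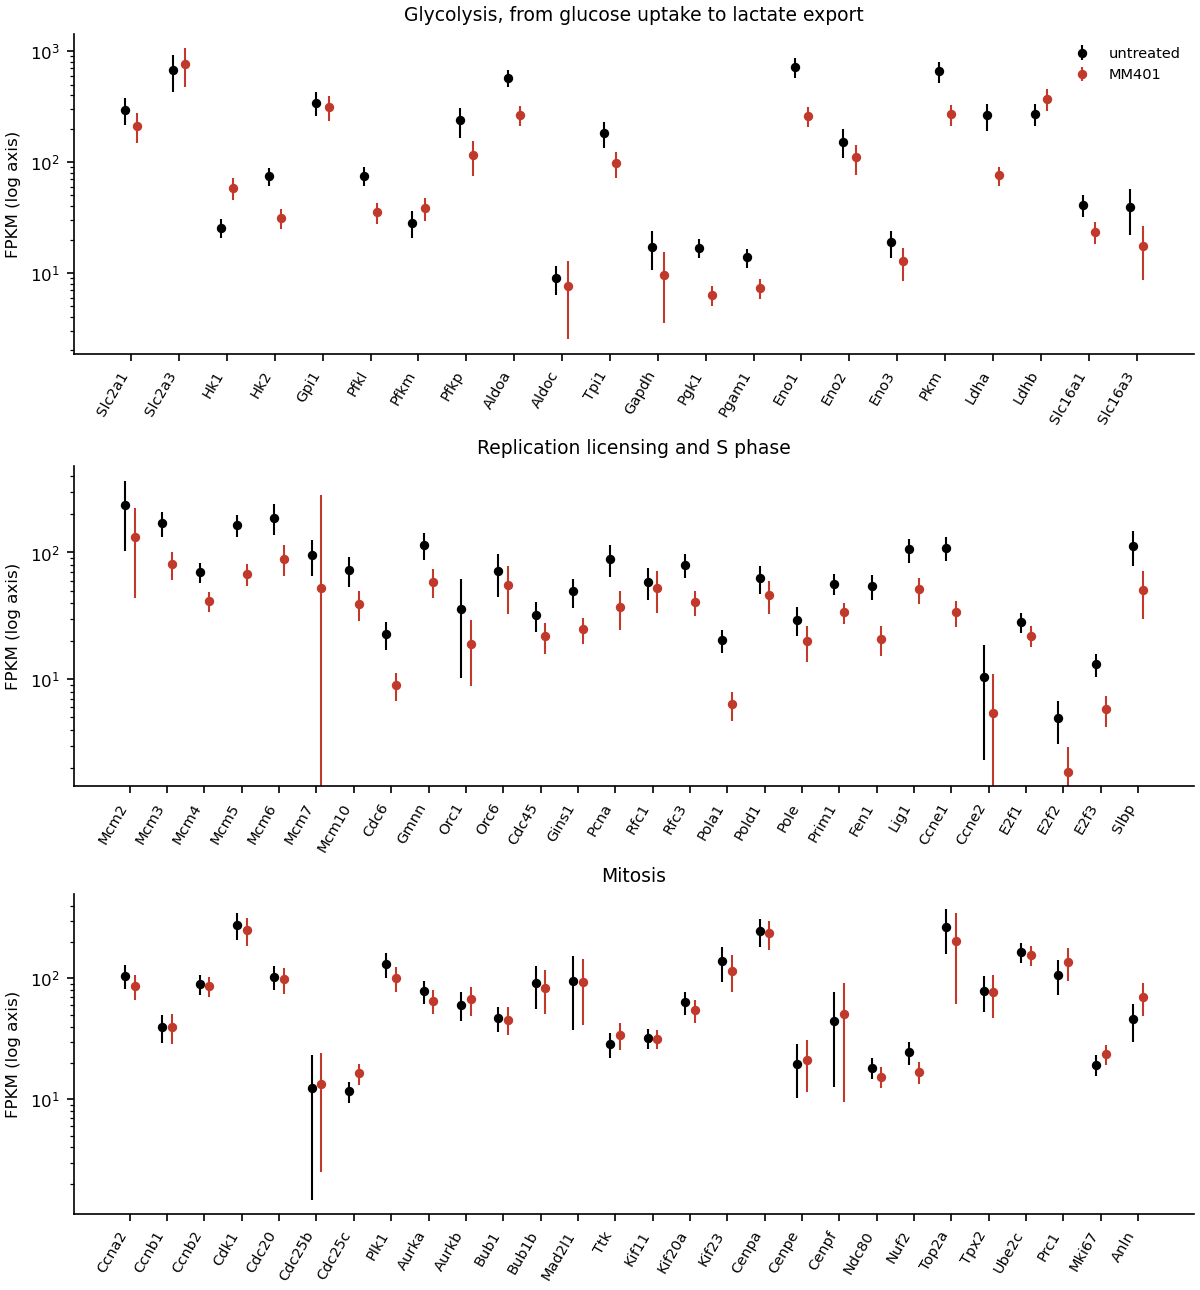
FPKM on a log axis in untreated (black) and MM401 cells (red) with the authors' intervals, for glycolysis genes in pathway order, replication and S phase genes, and mitosis genes; an interval that reaches 0 runs off the axis. In the upper panel Hk1 goes from 25.5 to 58.5 and Hk2 from 75.02 to 31.5, all S phase points are lower in MM401, and the mitosis points of each gene lie close together.

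Glycolysis genes are classic targets of HIF-1, which binds the core ACGTG. In RefSeq promoters of GRCm38.p6 (250 bases before to 50 after a start), this core was searched on both strands, as ACGTG or CACGT. It was found in 46.9% of 32 promoters of 21 glycolysis genes, in 19.6% of all 32851 promoters and in 24.5% of the 14498 promoters of members. Among the 13 genes with a match 6 were lower and 1 was higher (median −0.83), and among the 8 without one 3 were lower and 0 higher (median −0.71). So lower genes were found with and without the core, and Eno1, Pfkl and Pfkp had none in these windows. Hypoxia response genes outside glycolysis stood on both sides. Of 21 loci 2 were higher and 2 lower (median 0.02), with Pdk1, which shuts pyruvate out of mitochondria, at 99.9 and 36.3, the demethylase gene Kdm3a at 50.6 and 24.8, the peptide hormone gene Adm at 8.04 and 21.4, and Vegfa at 78.8 and 80.1 FPKM.

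The promoters of Ldha and of both hexokinase genes are shown because Ldha had the largest decrease of the list and Hk1 and Hk2 went apart. Capitals mark the core and its reverse complement, and CACGTG holds both. The windows are chr7:46845554-46845853 (plus strand, the first of 2 Ldha promoters, the other having no match), chr6:82774405-82774704 (minus strand) and chr10:62340372-62340671 (minus strand, the second of 2 Hk1 promoters, the other having no match). They hold 5, 2 and 2 matches.
Ldha: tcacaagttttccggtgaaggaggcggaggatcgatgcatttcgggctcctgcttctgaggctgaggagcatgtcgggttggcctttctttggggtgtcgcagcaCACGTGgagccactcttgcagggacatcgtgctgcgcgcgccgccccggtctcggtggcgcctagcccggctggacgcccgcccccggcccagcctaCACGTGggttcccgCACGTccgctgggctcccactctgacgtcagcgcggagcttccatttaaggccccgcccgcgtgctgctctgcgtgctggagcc
Hk2: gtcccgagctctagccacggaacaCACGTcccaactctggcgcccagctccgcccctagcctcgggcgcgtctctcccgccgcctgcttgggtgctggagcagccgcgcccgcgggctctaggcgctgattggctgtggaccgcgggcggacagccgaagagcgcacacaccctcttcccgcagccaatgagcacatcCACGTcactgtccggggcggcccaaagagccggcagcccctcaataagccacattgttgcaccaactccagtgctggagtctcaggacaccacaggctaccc
Hk1: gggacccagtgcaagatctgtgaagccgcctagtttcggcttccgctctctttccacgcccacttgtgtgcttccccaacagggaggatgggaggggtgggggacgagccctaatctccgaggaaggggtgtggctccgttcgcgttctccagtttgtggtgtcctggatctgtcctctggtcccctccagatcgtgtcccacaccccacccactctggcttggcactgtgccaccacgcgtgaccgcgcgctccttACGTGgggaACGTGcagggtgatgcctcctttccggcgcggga

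Genes tied to glucose sensing by the MondoA and ChREBP factors had members past 2-fold only on the higher side. Of 12 loci 4 were higher and 0 lower (median 0.29). Txnip, which limits glucose uptake, is given above. Its relative Arrdc4 was at 14.8 FPKM (11.3 to 18.4) and 52.4 (40.3 to 64.4), Mlxipl, which encodes ChREBP, at 1.48 and 7.71, and Pfkfb3, an activator of phosphofructokinase, at 3.35 and 8.04. Arrdc4 had ratios of 1.10 in the Mll1 deletion and 1.09 in 2i. MondoA and ChREBP bind paired E-boxes. The E-box CACGTG was found once in the Arrdc4 promoter (chr7:68749189-68749488, minus strand), marked in capitals below, and 0 times in that of Txnip. CACGTG was found in 7.15% of all promoters and in 9.70% of those of members. This sequence is its own reverse complement and contains the HIF core. Only this exact sequence was searched, so variant or paired E-boxes were not covered. The 0 for Txnip therefore does not mean that its promoter lacks such a site.
Arrdc4: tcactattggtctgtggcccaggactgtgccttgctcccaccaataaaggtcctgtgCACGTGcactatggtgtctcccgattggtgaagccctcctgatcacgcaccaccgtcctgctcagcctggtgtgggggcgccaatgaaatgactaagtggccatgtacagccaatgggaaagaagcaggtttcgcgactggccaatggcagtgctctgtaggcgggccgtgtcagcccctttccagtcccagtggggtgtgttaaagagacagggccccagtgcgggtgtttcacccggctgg

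Lists of amino acid use had more members lower than higher, with most members within 2-fold. ATF4 is a transcription factor that raises amino acid synthesis and transport under stress. Of its 23 listed loci 6 were lower and 2 higher (median −0.70), with −0.14 in the Mll1 deletion and 0.65 in 2i. The folate enzyme genes Mthfd1l (47.8 and 8.94 FPKM) and Shmt2 (245 and 86.2), the secreted hormone gene Stc2 (14.03 and 2.44), the glutathione-degrading enzyme gene Chac1 (39.8 and 11.3), Atf5 (93.3 and 31.2) and Cth, which makes cysteine (145 and 70.2), were lower. Ddit3, which encodes CHOP, was higher at 41.2 (14.3 to 68.0) and 156 (104 to 207), and so was the hormone gene Fgf21 at 1.38 (0.867 to 1.89) and 6.27 (4.78 to 7.76). Atf4 itself was at 325 and 192, and the CHOP target Trib3 at 59.3 and 35.4, both below 2-fold with separate intervals. Of 21 loci of the unfolded protein response and ER chaperones, 0 were higher and 0 lower, and Hspa5, which encodes BiP, was at 512 and 609.

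The sequence TGATGCA, the core of the composite element that ATF4 binds with C/EBP proteins, was searched on both strands, as TGATGCA or TGCATCA. It was found in 24.0% of 25 promoters of 22 genes in this list, in 3.15% of all promoters and in 1.97% of those of members. Of the 6 genes with a match 1 was lower, Chac1, and 1 was higher, Fgf21 (median −0.08). Among the 16 without one 4 were lower and 1 was higher (median −0.74). Chac1 and Fgf21 are shown because they went in opposite directions with 1 match each, marked in capitals, at chr2:119350992-119351291 (plus strand) and chr7:45615441-45615740 (minus strand).
Chac1: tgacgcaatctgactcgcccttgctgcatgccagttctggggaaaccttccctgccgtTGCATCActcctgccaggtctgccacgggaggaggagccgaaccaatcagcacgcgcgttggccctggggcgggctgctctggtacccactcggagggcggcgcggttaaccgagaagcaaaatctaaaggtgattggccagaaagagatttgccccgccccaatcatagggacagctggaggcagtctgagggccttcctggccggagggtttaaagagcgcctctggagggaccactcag
Fgf21: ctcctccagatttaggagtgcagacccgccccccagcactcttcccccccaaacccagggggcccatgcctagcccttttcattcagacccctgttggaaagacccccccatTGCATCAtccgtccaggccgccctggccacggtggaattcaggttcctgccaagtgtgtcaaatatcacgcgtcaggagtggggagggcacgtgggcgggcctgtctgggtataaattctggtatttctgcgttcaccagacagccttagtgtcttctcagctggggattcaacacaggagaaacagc

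Of 25 amino acid transporter loci 5 were lower and 2 higher. Beside Slc7a3, the lower ones were Slc7a7, for cationic amino acids (67.6 and 8.56 FPKM), Slc1a3, for glutamate and aspartate (11.49 and 3.18), and Slc38a1 (40.9 and 16.5) and Slc38a2 (105 and 47.5), for glutamine and small neutral amino acids. The higher ones were the glutamate transporter gene Slc1a1 (1.06 and 5.38) and Slc7a2 (2.65 and 6.62), a paralog of Slc7a3. In folate, purine and pyrimidine synthesis 6 of 33 loci were lower and 0 higher (median −0.66). They held Tdh, the threonine dehydrogenase of mouse stem cells (159 and 46.6), Gcat, which acts next in threonine breakdown (23.8 and 10.8), thymidylate synthase Tyms (65.4 and 22.3) and the reductase subunit Rrm1 (90.7 and 37.4). Rrm1 and its p53-induced partner Rrm2b thus stood on opposite sides. In lipid metabolism, Fasn, the fatty acid synthase, was at 72.9 and 26.8, while Lpl, a lipase at the cell surface, was at 6.72 and 20.4 and Fabp3, a fatty acid carrier, at 69.4 and 256. Fabp3 may share reads with its processed pseudogene Fabp3-ps1 (167 and 513), so neither level is certain. Of 20 cholesterol loci 1 was higher and 0 lower.

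Other stress lists had few members past 2-fold. Of 26 NRF2 loci Nqo1, a quinone reductase, was the higher one (21.96 and 47.5 FPKM), and 0 were lower. Of 18 xenobiotic and metal response loci the Ephx1 locus, for an epoxide hydrolase, was higher (44.0 and 133). Of 21 heat shock loci 3 were higher and 3 lower, with the inducible genes Hspa1a (0.409 and 2.05) and Hspa1b (1.16 and 3.43) among the higher ones; they are near-identical copies. The intervals of the lower 3 overlapped. Among 31 lysosome and autophagy loci 21 were above 0 (median 0.32), and Psap, a precursor of lysosomal lipid-binding proteins, lay just past 2-fold at 246 and 492. Over all members of the comparison, beyond this list, Crhr2 and Gfpt1 also lay just past 2-fold on the higher side. Scoc, Il15 and the Ascl2 locus lay just below it. Tfeb, a master regulator of lysosome genes, was lower at 33.8 and 13.6.

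Genes of the interferon response were lower in 8 of 20 cases, all with separate intervals, and 0 were higher (median −0.67). The RNA sensor gene Ddx58 was at 21.6 FPKM (16.7 to 26.6) and 4.25 (3.11 to 5.40), the ubiquitin-like gene Isg15 at 11.0 and 2.27, and the membrane protein genes Ifitm1 at 97.3 and 28.6 and Ifitm3 at 263 and 95.8. Isg15 had ratios of −2.69 in the Mll1 deletion and 1.00 in 2i. The factor gene Irf9 was at a joint locus with a ratio of −0.16, and Bst2, a membrane tether of viruses, was at 184 and 248.

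Several matrix genes and YAP targets were higher, and so were some fibroblast markers. Of 33 collagen and matrix loci 4 were higher and 0 lower, and 28 were above 0 (median 0.47). Lox, which crosslinks collagen, was at 35.7 FPKM (29.1 to 42.2) and 104 (87.0 to 120), Postn, for periostin, at 57.4 and 141, Thbs1, for thrombospondin, at 143 and 331, and Col11a1 at 3.29 and 8.32. The YAP target genes Ctgf (49.1 and 155), Cyr61 (44.2 and 121), Ankrd1 (1.98 and 7.47) and Amotl2 (55.8 and 133) were higher, and Actb, for beta-actin (2716 and 1172), and Ajuba were lower, of 24 YAP and SRF loci. The actin-binding protein gene Pfn1 was at 827 and 256, and the tubulin gene Tubb5 at 796 and 348, both in the 10 most abundant lower loci; actin and tubulin genes share reads with close paralogs and pseudogenes. Of 26 feeder fibroblast markers 23 were above 0, 4 were higher (Lox, Postn, Thbs1 and the protease gene Mmp2) and 2 were lower, Ccl2 and the S100a4 locus (64.1 and 17.9). Their summed level was 2383 FPKM untreated and 3139 in MM401, with list medians of 0.39 in MM401, −0.54 in the Mll1 deletion and 0.53 in 2i. Ptx3, for the secreted pentraxin 3, was at 3.12 and 23.5 FPKM, among the 20 largest increases. The feeders' part in the matrix, YAP target and Ptx3 values was not tested. The collagen and matrix medians were 0.47 in MM401, −0.47 in the Mll1 deletion and 0.75 in 2i, the same order as the fibroblast medians. Lox, Postn and Thbs1 are in both of these lists. The YAP and SRF medians were 0.30, −0.28 and 0.11 in the same columns. Among single genes, Thbs1 was at 148 and Ptx3 at 16.5 FPKM in 2i.

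Among chromatin genes, the DNA methyltransferase genes Dnmt3a (178 and 52.6 FPKM), Dnmt3l (104 and 33.9) and the Dnmt3b locus (89.5 and 14.9) were the 3 lower of 15 loci that write and erase DNA methylation, and 0 were higher. Dnmt3l, a cofactor without enzyme activity of its own, had a ratio of 0.69 in the Mll1 deletion. Of 32 Polycomb loci 3 were higher and 2 lower (median 0.05). The lower ones were Ezh2, the methyltransferase of histone H3 lysine 27 (93.1 and 45.9), and Epop, a stem cell cofactor of the same complex (126 and 46.8), and the higher ones included the chromobox gene Cbx8 (1.07 and 3.61), with separate intervals. The deacetylase gene Hdac1 (148 and 71.0) and the demethylase gene Kdm5b (153 and 71.6) were lower and the demethylase gene Kdm7a (2.39 and 6.23) higher, of 28 loci. Of 28 HOX cluster loci 24 were above 0 (median 0.38), and Hoxc13 (2.24 and 7.60) and Hoxb13 (0.375 and 2.06) were higher; HOX genes, known targets of MLL1, are also expressed in embryonic fibroblasts, whose part was not tested. The histone variant genes H2afz (121 and 48.7) and H3f3a (200 and 90.4) were lower, of 12 histone loci. Of 32 imprinted loci 4 were higher and 5 lower, and intervals were separate at Slc22a18, Cdkn1c and Dlk1 (higher) and Grb10 (lower, 106 and 34.9).

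Markers of other fates stood on both sides. Of 21 trophectoderm loci 7 were higher, all with separate intervals, and 0 were lower (median 0.60). Beside Sct, Id2, Wnt7b and the tight junction gene Cldn4 (52.0 and 133 FPKM), they were the transcription factor genes Dlx3 (0.246 and 3.41), Gata2 (1.40 and 4.96) and Esx1 (6.77 and 17.8). Sct, as given above, reached the count minimum in MM401 alone. Cdx2 and Elf5, which define that lineage, did not reach the count minimum, and the keratin genes Krt8 (17.2 and 12.6) and Krt18 (28.2 and 28.9) were within 2-fold. Of 20 primitive endoderm loci 7 were lower, 6 with separate intervals, and 0 were higher, including Apoa1 (7.44 and 0.263), Amn (14.3 and 3.34), Srgn (151 and 44.1) and Sox7 (3.88 and 1.19). The median of that list was −0.71, and it was −1.17 in the Mll1 deletion and −0.05 in 2i. Apoa1, with 21.5 estimated counts in MM401, reached the count minimum in untreated cells alone. Of 12 loci of the 2-cell-like state 3 were higher (Usp17le and the Tcstv1 and Tcstv3 loci, with 3.21 to 9.90, 2.46 to 9.16 and 2.51 to 10.3 FPKM), but these are multicopy families with shared reads, and Zscan4a was at 1.95 and 1.20. Of 22 germline loci 4 were higher, 2 of them with separate intervals, and 1 lower, the lower one being Stra8 (18.004 and 8.24), a gene of meiotic entry. Of 13 neural loci Dll1, a NOTCH ligand, was higher (3.16 and 7.74) and Gbx2 and Stmn2 (139 and 42.8) were lower. Of 10 primitive streak loci Lhx1 was lower (3.82 and 0.267).

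Some members called the same way were neighbours on the genome. In the order of the positions in the deposited tables (mm10), 16 runs of at least 3 adjacent member loci were called in 1 direction. In 8 of them some loci share 1 stretch of the table, so that they may share reads, and 10 hold loci in at least 3 stretches. Some runs hold more than 1 locus of the same gene, such as those with Mdm2, Creg1 and Gm26609, and so span fewer genes than loci. Pfkl, Dnmt3l and Aire on chromosome 10 were lower, with Dnmt3l and Aire in 1 stretch and with overlapping intervals at Aire (12.1 and 2.90). On chromosome 7 (46104523 to 46311434), Abcc8, Gm9860, Ush1c and Otog were higher, Gm9860 and Ush1c from 1 stretch, with Abcc8, the sulfonylurea receptor gene, at 1.49 and 6.19 and the inner ear matrix gene Otog at 0.254 and 2.55. The protease loci Prss42, Prss43 with Prss44, and Prss50, known from testis, were higher on chromosome 9. The Zic2 and Zic5 loci and 2610035F20Rik on chromosome 14 lie in 1 overlapping stretch and may share reads, since the sources used here do not say whether counting used strand.

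Direction varied with the level and length of the gene. Over 5 equal bins of mean FPKM in the 4 groups, the median ratio was 0.17, 0.12, −0.00, −0.11 and −0.28 from the lowest to the highest bin. In the highest bin 1.61% were higher and 6.62% lower, and in the second 8.66% and 4.33%. Of the members 14272 (88.2%) matched a GENCODE gene, 12212 of them protein-coding. In the bin of the shortest protein-coding transcripts 6.88% were lower and in the longest 2.01%. The share of higher loci was 3.11% in the bin of lowest GC and 7.16% in the highest. Processed pseudogenes had a median of −0.29 over 1135 loci, and 8 of these were higher and 62 lower. Chromosome medians lay between −0.13 (X) and 0.06 (chromosome 9). A locus under 1 FPKM untreated cannot be 2-fold lower on the FPKM + 1 scale, and 61.2% of the protein-coding loci in the least abundant bin were under it, so the share of lower loci there is limited by the scale. No formal test was made of these trends, and whether they overlap was not tested.

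**Figure D5:**
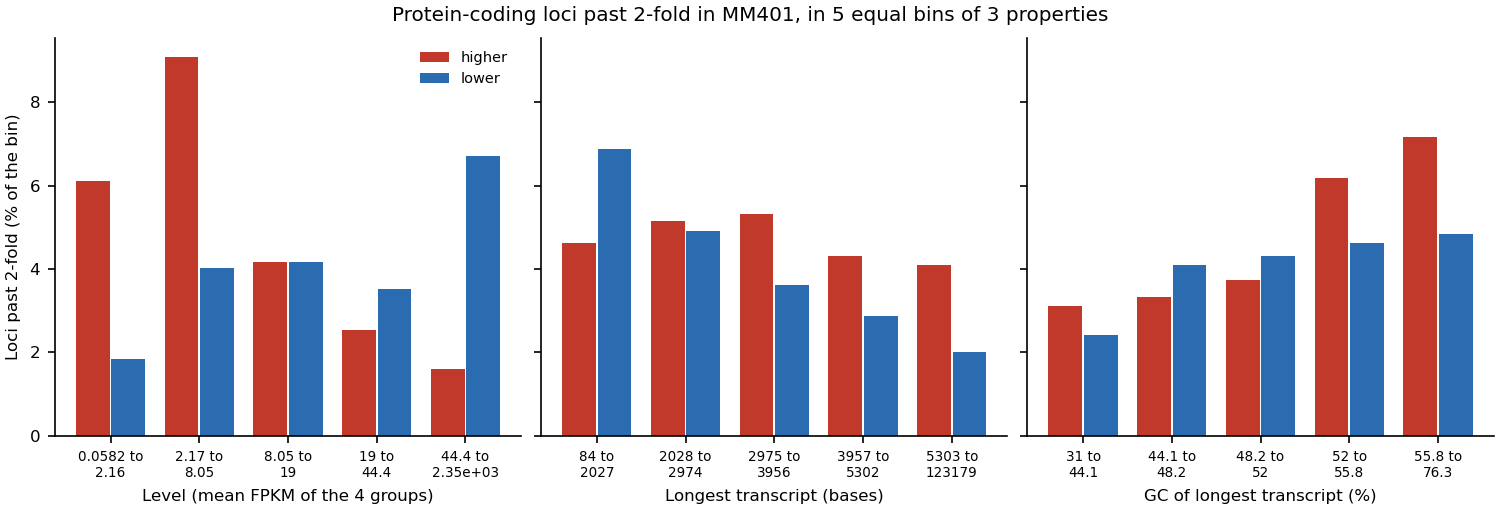
Bars give the share (%) of protein-coding loci at least 2-fold higher (red) or lower (blue) in MM401, in 5 equal bins of mean FPKM, of longest transcript and of its GC content, with the limits of each bin on the horizontal axis. Lower loci take 6.71% of the most abundant bin against 1.84% of the least abundant one, where the FPKM + 1 scale limits it, and 6.88% of the shortest against 2.01% of the longest.

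At some loci FPKM and counts went apart. The largest ratio of all, 3.58, was at the joint Gria4 locus, where FPKM was 0.572 untreated and 17.8 in MM401 while counts were 177 and 313. At the joint Ell3 locus FPKM was 10.8 and 120.7 and counts 1641 and 2303. Both loci include a microRNA gene of the annotation and had overlapping intervals; these loci were chosen after their values were seen. A further 5 members were listed at 0 in MM401, of which a locus of Zfp275, a gene with a further locus among the members, had the most counts untreated (339, at 0.643 FPKM).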

How the data were processed

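RNA was sequenced from total RNA (RNeasy, TruSeq libraries, per the labels' protocols). Per the submitters' processing notes, the build was mm10, and deepTools, SAMtools 1.5 and TopHat2 2.1.1 are listed with no roles. The deposited table of FPKM gives, per the file headers, a value, its limits and a status in each group. The deposited estimated counts are fragments per locus and need not be whole, per the file headers. The authors pooled both libraries of a group into 1 column. How the limits were computed, the counting program and its use of strand are not given in the sources used here. The labels call the libraries biological duplicates.

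From these values, log2 ratios of FPKM + 1 were computed with Python 3.11.15, pandas 2.3.3 and numpy 2.4.6, and drawn with matplotlib 3.10.9. No test, SD or p-value was possible on pooled columns, and the planned description was used. The script was tested on simulated data with 200 planted changes. These were far larger than 2-fold and left out loci at low level. Calls near the threshold or at low level were therefore not tested. A locus was called at 2-fold, with separate intervals where the authors' limits did not overlap. Count ratios used a pseudocount of 10. Gene positions are from the GENCODE annotation of GRCm38, counted from 1, and promoters from RefSeq.

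Members and the 53 gene lists were chosen with earlier results of these data known. Genes were named by a rule: the target complex, the 20 largest changes in each direction with separate intervals whose counts also changed 2-fold, the 10 most abundant called loci in each direction, up to 6 called and 3 uncalled members per list, and 3 loci on each side of the threshold. Other genes named were chosen after their values were seen, and a few that the rule or a list would name are not reported here. Of 1271 listed symbols, 1192 were members. RefSeq promoters were matched to members by symbol, which gave 14498 promoters of 11366 genes. Motif shares are given against all promoters and against those of members, and other promoter properties were not examined.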

Additional observations from a re-analysis of the deposited data

How the results depend on the processing

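No paired analysis was possible because each deposited column pools the libraries of a group, and for the same reason no library could be left out in turn. The counts of 708 higher and 697 lower loci stayed within 1.5 times under at least 500 counts, an added FPKM minimum of 1, median centring, joint loci left out and separate intervals required. With a pseudocount of 0.1 they were 1604 and 1126, with a pseudocount of 5 they were 174 and 355, and at 3-fold 112 and 175. On estimated counts scaled to totals, 2023 were higher and 860 lower, and without a count minimum 1178 and 1017. Chosen after seeing the data, estimated counts without rescaling gave 1595 and 1146, and separate intervals at any fold gave 1536 and 1550. Scaling to totals raised every count ratio, because the total was smaller in MM401. The cause of the other shifts was not tested. The median over all members was −0.02 on FPKM + 1 and 0.09 on counts scaled to totals with a pseudocount of 10. The median changed sign under at least 1 setting in 12 of 53 gene lists, none with a median further than 0.09 from 0. Of 253 named or listed loci past 2-fold, 148 stayed past it under every setting that gave them a ratio. The 3-fold and interval settings were not part of this count. A locus that a setting left out was not counted against it. Direction reversed at 2 of the 253, both joint loci with overlapping intervals. The Mirg locus went from 1.42 to −0.22 on counts and −0.36 on counts without rescaling, and the Xist locus from −2.44 to 0.95 and 0.81. No setting varied the depth, so what it limits at low loci was not tested.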
